A study of Mus musculus with 18 samples.

Results

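Crabp1, Crabp2, Cyp26a1, Dhrs3, Rarb and Stra8, genes of the retinoic acid pathway, were followed through neural differentiation (ND) of mouse ESCs with and without Zeb2. They were chosen by gene symbol, with earlier results of these data known, and 6 of the 6 symbols were present among the 10965 genes of the expression table. All libraries were labelled CD1 and came from ESC lines kept without feeder cells in 2i + LIF. The control cells (Ctrl) carried Zeb2 alleles flanked by loxP sites, and the Zeb2 KO cells were Zeb2 -/-. The CD1 KO lines of the study were made by Cre recombination in such control lines, whereas its other KO lines had a mixed background, and the labels do not say which line or clone each library came from. RNA was sequenced from both genotypes at d0 (ground-state ESCs), d4 (embryoid bodies, EBs, grown in medium with 15% serum) and d6 (EBs moved at d4 to N2B27 with 500 nM retinoic acid), with 3 libraries from independent experiments in each of the 6 groups. Whether the d4 RNA was taken before or after retinoic acid was added on that day is not stated.

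Retinoic acid is made from vitamin A, which cells take up as retinol and oxidize through retinaldehyde. It binds nuclear receptors of the RAR family, which sit with RXR partners on response elements in target genes, and several targets act back on the ligand itself by binding, inactivating or withholding it. In ESC-derived EBs and in the embryo it directs cells toward posterior neural fates and sets Hox gene expression. Among the 6 genes, Crabp1 and Crabp2 encode cellular retinoic acid-binding proteins, Cyp26a1 encodes the cytochrome P450 that oxidizes retinoic acid, and Dhrs3 encodes a reductase that turns retinaldehyde back into retinol. Rarb encodes a retinoic acid receptor whose own gene is a classical target, and Stra8 was named for its stimulation by retinoic acid and is required for entry into meiosis in germ cells.

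Sequences that match a retinoic acid response element were found beside 2 of the genes, and they are shown as the kind of element that RAR and RXR pairs bind. RefSeq promoter windows on GRCm38.p6, from 250 bases before to 50 after each start, were found for 5 of the 6 genes, and Crabp2 was not among them. They were searched on both strands for direct repeats of the receptor half-site (AGGTCA, with the first base also G and the third also T) with spacers of 1, 2 or 5 bases, named DR1, DR2 and DR5. The capitals mark the half-sites and the lower-case letters between them the spacer.
Rarb DR5: cgggaagGGTTCAccgaaAGTTCActcgca
Cyp26a1 DR5: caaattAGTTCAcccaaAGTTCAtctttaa
The Rarb sequence is chr14:16575507-16575536 and reads along the gene's own strand, with the repeat 53 to 37 bases before the start of the window's transcript. GENCODE M21 places it in an untranslated part of an exon of 2 of the 7 Rarb transcripts, which begin farther upstream. The Cyp26a1 sequence is chr19:37697769-37697798 and reads on the strand opposite to the gene, with the repeat 32 to 16 bases before the start of the window's transcript. GENCODE M21 places the gene's start elsewhere, at base 37697798, and has the repeat in no transcript of the gene. A DR5 was found in 32 of 32851 windows of this length (0.0974%), a DR1 in 0.222% and a DR2 in 0.268%. None of these 3 repeats was in the windows of Crabp1, Stra8 or Dhrs3, which says only that these letters are not in these windows.

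Expression is given as TPM, an estimate of transcripts scaled by library and by gene length, so that levels of different genes can be set side by side. Reads on the 10965 genes numbered 9622622 to 15617675 per library. Zeb2, the targeted gene, was at 7.53 to 7.81 TPM in Ctrl at d6 and 0.594 to 0.733 TPM in KO, and on each day its highest KO library was below its lowest Ctrl library. Comparisons used limma on log2(TPM + 1), with the 6 groups in 1 model. A gene was called when its p, adjusted by Benjamini-Hochberg over the 10965 genes, was below 0.01, and every adjusted p below is from that test. Zeb2 was called lower in KO at d4 and d6 but not at d0 (-0.14, adjusted p = 0.360). At d0 it rested on 1 to 3 reads per KO library and 13 to 19 per Ctrl library. The scale understates changes of genes at few TPM. Over all genes the median difference, KO minus Ctrl, was -0.07 on the log2 scale at d0, -0.16 for d4 and -0.14 for d6, and the median change from d0 to d4 was 0.26 in Ctrl and 0.15 in KO, against which the values below are to be read. The table holds only genes that reached 5 TPM in at least 3 libraries, and each of the 6 genes reached it in 3 or more of the 9 KO libraries alone, so none entered the table through Ctrl only (with fewer than 3 KO libraries at the minimum).

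In Ctrl EBs, 6 of the 6 genes rose between d0 and d4, when 45.1% of all genes were called higher. Between d4 and d6, 4 of them rose further (Crabp1, Crabp2, Rarb and Stra8; 22.6% of all genes were called higher), whereas Cyp26a1 and Dhrs3 were not called as changed. In Zeb2 KO EBs, 5 of the 6 rose between d0 and d4 (35.8% of all genes), and 3 rose between d4 and d6, which were Cyp26a1, Dhrs3 and Crabp2 (21.5% of all genes). KO was called lower than Ctrl for 2 of the 6 genes at d0 (16.4% of all genes), for 6 at d4 (32.7%) and for 6 at d6 (34.3%). The 3 KO libraries lay wholly below the 3 Ctrl libraries for 3 of the 6 genes at d0 (31.5% of all genes), for 6 at d4 (45.7%) and for 6 at d6 (41.1%).

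**Figure D1:**
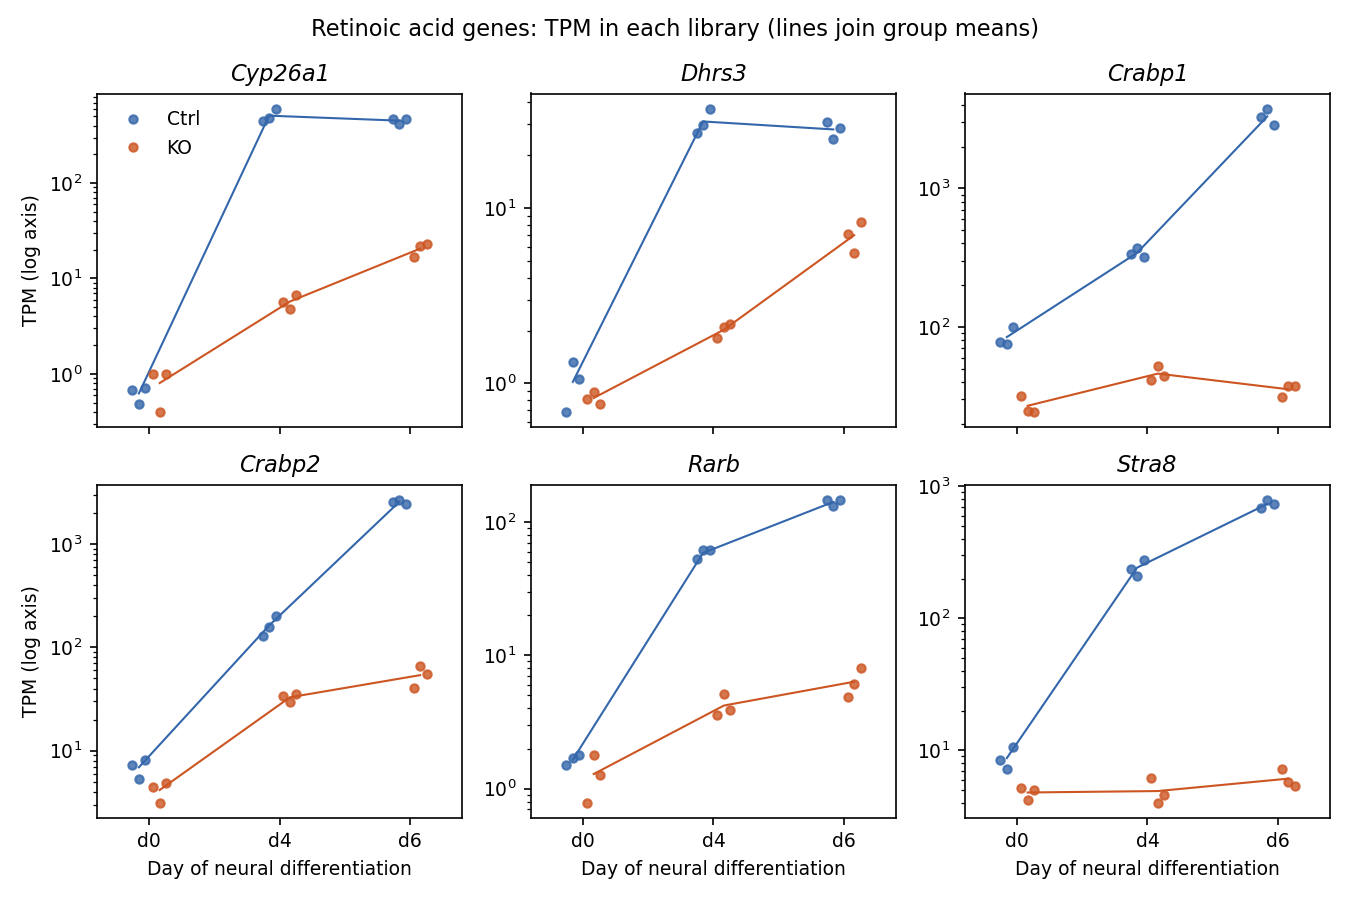
TPM of the 6 genes (log axis, a different range in each panel) in each library of Ctrl and Zeb2 KO at d0, d4 and d6 of ND, with lines joining the means of 3 libraries. Cyp26a1 and Dhrs3 level off after d4 in Ctrl and climb in KO, whereas Stra8 stays between 4.01 and 7.17 TPM in the 9 KO libraries.

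Crabp1 (ENSMUSG00000032291, chr9:54764748-54773110, plus strand), whose product binds retinoic acid in the cytoplasm, was the highest of the 6 genes before differentiation. At d0 the Ctrl libraries held 77.4, 75.9 and 100.3 TPM of Crabp1 and the KO libraries 31.6, 24.9 and 24.6 TPM, without overlap. The KO mean was 32.0% of the Ctrl mean, with a log2 fold change of -1.61 ± 0.13 (SE, adjusted p = 2.17e-07), the 36th lowest of 10965 genes. Crabp1 was thus already lower in KO in 2i + LIF. In Ctrl it went to 338, 368 and 319 TPM at d4 and to 3292, 3751 and 2846 TPM at d6, where its mean of 3296 TPM ranked 14th among all genes. In KO it was at 41.2, 52.6 and 44.5 TPM at d4 and 31.4, 37.5 and 37.7 TPM at d6. No KO library of any day reached the lowest Ctrl library at d0, and the KO mean at d6 was 42.1% of the Ctrl mean at d0. The log2 fold change in KO was -2.87 ± 0.13 at d4 (adjusted p = 9.54e-11) and -6.49 ± 0.13 at d6 (adjusted p = 4.07e-15). Within KO, Crabp1 rose by 0.75 on the log2 scale from d0 to d4 (adjusted p = 9.61e-05), and its change of -0.36 from d4 to d6 was not called (adjusted p = 0.0287), although it was with chromosome medians removed (-0.44, adjusted p = 0.00824). The rise by d4 lost its call with voom on recovered reads (adjusted p = 0.0222).

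Crabp2 (ENSMUSG00000004885, chr3:87948666-87953376, plus strand) began at a lower level and made the largest rise of all 10965 genes on the log2(TPM + 1) scale in Ctrl from d0 to d6. The Ctrl libraries held 7.22, 5.37 and 8.17 TPM at d0, 128, 157 and 203 TPM at d4 and 2561, 2675 and 2441 TPM at d6. That is a 370-fold rise of the mean from d0 to d6, of which the first 23.5-fold came by d4 and a further 15.7-fold by d6. By mean TPM the ratio was higher for Cyp26a1 (725-fold), whose d0 level was below 1 TPM. Crabp2, which carries retinoic acid to its nuclear receptors, ended at a mean of 2559 TPM, 17th among all genes. The KO libraries held 4.50, 3.14 and 4.87 TPM at d0, 33.7, 29.7 and 35.2 TPM at d4 and 40.2, 66.1 and 55.3 TPM at d6. They lay below Ctrl without overlap on each day, but the difference at d0, a log2 fold change of -0.61 ± 0.19, was not called (adjusted p = 0.0165). It was called with a pseudocount of 0.1 (-0.72, adjusted p = 0.00977), without Ctrl library 2 of d0 (-0.76, adjusted p = 0.00800) and without KO library 1 of d6 (adjusted p = 0.00802). The difference of -2.25 ± 0.19 at d4 (adjusted p = 8.44e-08) was called, as was that of -5.57 ± 0.19 at d6 (adjusted p = 7.39e-13). Of the 6 genes Crabp2 and Cyp26a1 had the largest rises in KO by d4, at 7.89-fold and 7.16-fold by mean TPM. Their order is not settled, since each TPM value includes 1 added read and Cyp26a1 rested on 2 to 5 reads in KO at d0. On the log2 scale the rise of Crabp2 was 2.73 ± 0.19 (adjusted p = 2.36e-09). The rise of Crabp2 by 0.67 from d4 to d6 in KO (adjusted p = 0.00695) lost its call in 9 of the 28 other settings tried, among them leaving out any 1 of the KO libraries of d4 (adjusted p of 0.0124 to 0.0297) and leaving out KO library 2 (adjusted p = 0.0449) or 3 (adjusted p = 0.0231) of d6.

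Cyp26a1 (ENSMUSG00000024987, chr19:37697798-37701536, plus strand) had the largest rise of the 10965 genes on the log2(TPM + 1) scale between d0 and d4 in Ctrl. At d0 it rested on 2 to 5 reads per library, with 0.674, 0.481 and 0.714 TPM in Ctrl and 1.01, 0.403 and 0.992 TPM in KO, and the groups overlapped (log2 fold change 0.13 ± 0.16, adjusted p = 0.551). In Ctrl it was at 448, 476 and 604 TPM at d4 and at 472, 413 and 471 TPM at d6. The d4 and d6 libraries overlapped, and the difference between the days was -0.16, with a 95% confidence interval from -0.50 to 0.18 (adjusted p = 0.407). In KO it was at 5.70, 4.79 and 6.71 TPM at d4, which was 1.13% of the Ctrl mean. The log2 fold change of -6.24 ± 0.16 at d4 (adjusted p = 1.68e-13) was the third lowest of 10965 genes. By d6 the KO libraries had risen to 16.7, 21.8 and 23.2 TPM, above each KO library of d4, and the KO mean was 4.55% of the Ctrl mean. The log2 fold change was -4.40 ± 0.16 at d6 (adjusted p = 1.84e-12). The rise within KO was 1.91 on the log2 scale from d0 to d4 (adjusted p = 2.48e-08) and 1.68 from d4 to d6 (adjusted p = 3.65e-07), and the KO mean at d6 was 4.03% of the Ctrl mean at d4.

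Dhrs3 (ENSMUSG00000066026, chr4:144892827-144928209, plus strand) followed a like course at a lower level. It was at 0.690, 1.31 and 1.05 TPM in Ctrl at d0, at 26.8, 29.8 and 36.8 TPM at d4 and at 30.7, 24.6 and 28.7 TPM at d6, so that the d4 and d6 libraries overlapped (change of -0.14, 95% confidence interval from -0.47 to 0.20, adjusted p = 0.477). In KO it was at 0.818, 0.894 and 0.763 TPM at d0, at 1.80, 2.09 and 2.17 TPM at d4 and at 7.15, 5.50 and 8.31 TPM at d6. The genotypes overlapped at d0 and lay apart at d4 and d6. The d0 difference was -0.13 on the log2 scale (adjusted p = 0.541). At d4 Dhrs3 was lower in KO by -3.40 ± 0.16 on the log2 scale (adjusted p = 1.08e-10), and this shrank to -1.87 ± 0.16 at d6 (adjusted p = 4.35e-08). Its KO mean went from 6.49% of the Ctrl mean at d4 to 24.9% at d6, the nearest of the 6 genes to its Ctrl level. Within KO it rose by 0.73 from d0 to d4 (adjusted p = 6.98e-04) and by 1.39 from d4 to d6 (adjusted p = 2.19e-06), and of these the first was lost after quantile normalization (0.01, adjusted p = 0.961), with a pseudocount of 5 (adjusted p = 0.0322) and with voom (adjusted p = 0.0134).

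Rarb (ENSMUSG00000017491), a receptor gene, was low in ESCs, at 1.496, 1.69 and 1.77 TPM in Ctrl and 0.785, 1.80 and 1.28 TPM in KO, from 7 to 22 reads per library, and the groups overlapped (log2 fold change -0.24, adjusted p = 0.299). In Ctrl it was at 53.2, 61.1 and 61.5 TPM at d4 and at 146, 132 and 147 TPM at d6, a 2.41-fold rise of the mean between these days. The KO libraries held 3.56, 5.13 and 3.92 TPM at d4 and 4.88, 6.13 and 7.999 TPM at d6. Each KO library of d4 and d6 lay below the lowest Ctrl library of d4, whereas the KO libraries of d4 and d6 overlapped each other. The log2 fold change in KO was -3.53 ± 0.17 at d4 (adjusted p = 1.52e-10) and -4.30 ± 0.17 at d6 (adjusted p = 4.82e-12). Within KO the rise of 1.20 by d4 was called (adjusted p = 1.08e-05) and the change of 0.49 from d4 to d6 was not (adjusted p = 0.0241), although it was without KO library 1 of d6 (0.63, adjusted p = 0.00618). The rise by d4 was lost after quantile normalization (0.51, adjusted p = 0.0176). The gene spans chr14:16430839-16819156 on the minus strand and overlaps Top2b, which lies on the plus strand, and an antisense gene, Gm48162, which was not in the table. Whether reads were counted by strand is not stated, so reads of overlapping parts cannot be assigned with certainty. Top2b, a DNA topoisomerase, was at 162 TPM in Ctrl and 118 TPM in KO at d4, and at 178 and 74.2 TPM at d6, with log2 fold changes of -0.46 and -1.25, and its part in the Rarb values was not tested. Reads were counted per gene, so Rarb isoforms from different promoters, including the one with the DR5, cannot be told apart.

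Stra8 (ENSMUSG00000029848, chr6:34920163-34939344, plus strand) was not called as changed between any days in KO. The Ctrl libraries held 8.47, 7.22 and 10.5 TPM at d0, 238, 210 and 277 TPM at d4 and 684, 789 and 728 TPM at d6, where Stra8 ranked 95th among all genes. The KO libraries held 5.22, 4.17 and 4.99 TPM at d0, 6.17, 4.01 and 4.57 TPM at d4 and 7.17, 5.77 and 5.37 TPM at d6. The KO libraries of d0 overlapped those of d4, and those of d4 overlapped those of d6, and no KO library of any day reached the lowest Ctrl library of d0. The change in KO from d0 to d4 was 0.02, with a 95% confidence interval from -0.30 to 0.34 (adjusted p = 0.926), and its sign turned in 6 of the 28 other settings, among them without KO library 2 of d0 (-0.06) and without KO library 1 of d4 (-0.13). From d4 to d6 it was 0.27 (adjusted p = 0.141). At d0 Stra8 was lower in KO by -0.74 ± 0.15 (adjusted p = 0.00104), a call that was lost in a fit to d0 alone, with voom on recovered reads and after quantile normalization (adjusted p of 0.0103 to 0.0304). It was lower by -5.37 ± 0.15 at d4 (adjusted p = 5.09e-13) and by -6.70 ± 0.15 at d6 (adjusted p = 6.44e-15), and the KO mean was 2.03% and 0.832% of the Ctrl mean. Stra8 lies on chromosome 6, whose 560 genes had a median difference of 0.08 at d0 and -0.24 at d4 on the log2 scale, and its calls were the same after the median of each chromosome was removed.

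**Figure D2:**
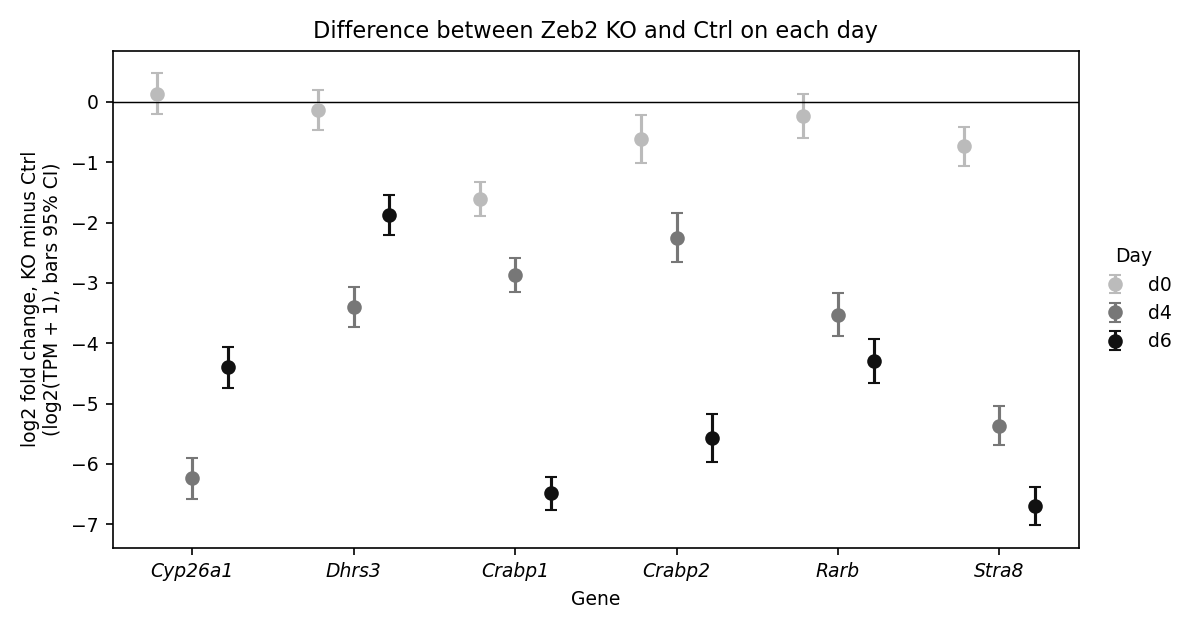
Log2 fold change, KO minus Ctrl, on log2(TPM + 1) for each gene at d0, d4 and d6, with bars of the 95% confidence interval from limma (3 libraries per group). From d4 to d6 the difference shrinks for Cyp26a1 (-6.24 to -4.40) and Dhrs3 (-3.40 to -1.87) and widens for Crabp1, Crabp2 and Stra8.

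The difference between the genotypes in the change over time was tested in the same model. From d0 to d4 the change was lower in KO for 6 of the 6 genes (22.5% of all genes were called lower in this test). It was lower by between 1.26 (Crabp1) and 6.38 (Cyp26a1) on the log2 scale. The call of Crabp2 in this test was lost with voom (adjusted p = 0.0455). From d4 to d6 the genes parted in direction. Cyp26a1 rose more in KO than in Ctrl by 1.84 ± 0.23 (adjusted p = 2.06e-05) and Dhrs3 by 1.53 ± 0.22 (adjusted p = 1.14e-04), a direction called for 7.10% of all genes. By mean TPM, Cyp26a1 went up 3.58-fold and Dhrs3 3.46-fold in KO over these days, in comparison with 0.887-fold and 0.901-fold in Ctrl. The change was lower in KO for Crabp1 (-3.62 ± 0.19, adjusted p = 2.50e-09), Crabp2 (-3.32 ± 0.27, adjusted p = 2.61e-07) and Stra8 (-1.33 ± 0.21, adjusted p = 2.59e-04), a direction called for 6.29% of all genes. Within KO itself the changes of Crabp1 (-0.36) and Stra8 (0.27) over these days were not called. The change of Rarb was also lower in KO by value, at -0.77, which did not pass (adjusted p = 0.0291). It was called after quantile normalization (-1.07, adjusted p = 0.00397), with a pseudocount of 5 (-0.91, adjusted p = 1.60e-04) and without KO library 3 of d6 (-0.93, adjusted p = 0.00862). Over the whole interval from d0 to d6 the change was lower in KO for 6 of the 6 genes (25.9% of all genes). Dhrs3 was nearest to Ctrl (-1.74) and Stra8 farthest (-5.96). KO called higher at d6 than at d0 held for 4 of the 6 genes (40.3% of all genes), and Crabp1 (0.39, adjusted p = 0.0138) and Stra8 (0.29, adjusted p = 0.0922) were not called. Crabp1 passed without library 3 of Ctrl at d0 (adjusted p = 0.00792), without library 1 of KO at d0 (0.50, adjusted p = 0.00397) and without library 1 of KO at d6 (0.47, adjusted p = 0.00764). In Ctrl it held for 6 of 6 (45.8% of all genes).

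**Figure D3:**
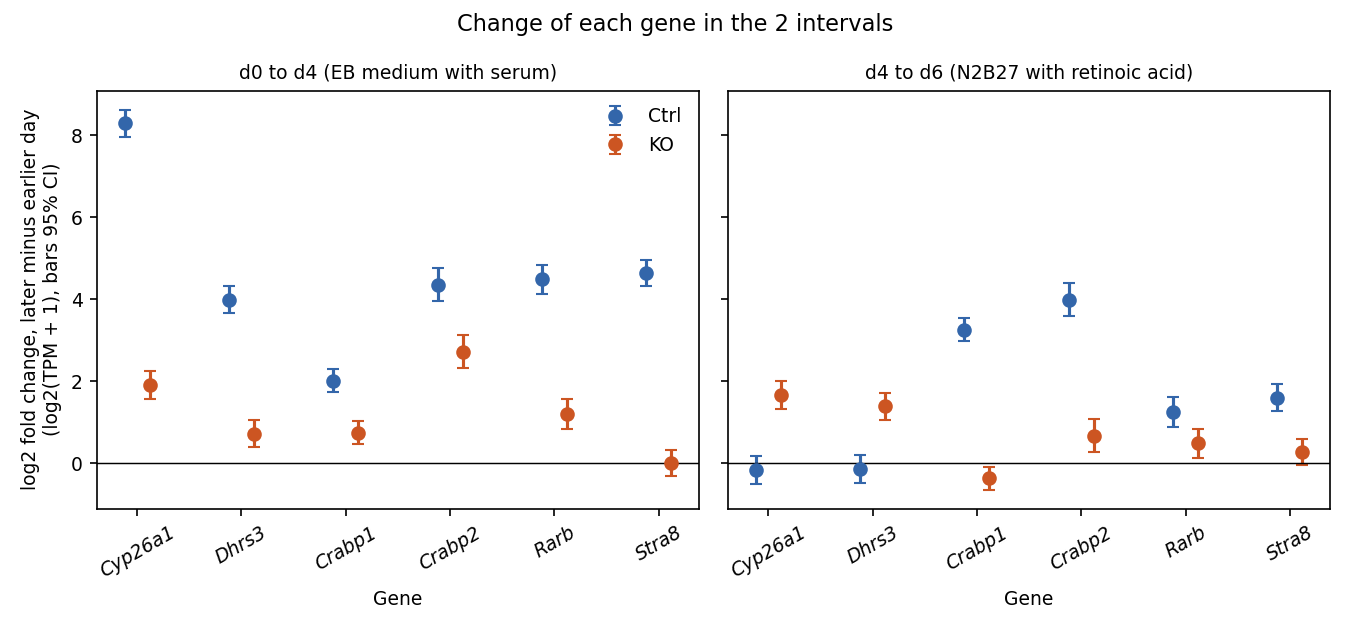
Log2 fold change of the 6 genes between d0 and d4 (left) and between d4 and d6 (right) in Ctrl and Zeb2 KO, with bars of the 95% confidence interval from limma (3 libraries per group). On the left each Ctrl point lies above its KO point, and on the right Cyp26a1 and Dhrs3 lie near 0 in Ctrl and at 1.68 and 1.39 in KO.

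The 6 groups were then ordered by mean TPM for each gene. For Crabp1 and Stra8 each KO group lay below Ctrl at d0, and for Crabp2, Rarb, Cyp26a1 and Dhrs3 the KO groups of d4 and d6 lay between Ctrl at d0 and Ctrl at d4. Neighboring groups without a gap between their libraries were KO at d0 and d6 for Crabp1, the KO groups for Stra8, both d0 groups for Cyp26a1, Rarb and Dhrs3, KO at d4 and d6 for Rarb, and Ctrl at d4 and d6 for Cyp26a1 and Dhrs3. Across the 18 libraries, which share their days and genotypes, the log2 levels of the 6 genes were correlated with each other with Pearson r from 0.788 (Crabp1 and Dhrs3) to 0.990 (Cyp26a1 and Dhrs3). Among all 10965 genes, those most like Cyp26a1 by this measure were Rasl10b (r = 0.992), Dhrs3 and Stra6 (r = 0.988). Those most like Dhrs3 were Cyp26a1, 4632428N05Rik (r = 0.989) and Rasl10b (r = 0.983). The nearest to Stra8 were 3 Hox genes, Hoxa3 (r = 0.994), Hoxb6 (r = 0.993) and Hoxb8 (r = 0.991). The nearest to Crabp1 were Ptprz1, Scube1 and Plagl2 (r of 0.986, 0.984 and 0.984), to Crabp2 Emilin1, Greb1 and Trabd2b (r of 0.995, 0.994 and 0.990), and to Rarb Dchs1, Gprin1 and Irx3 (r of 0.991, 0.990 and 0.989). Several of these, among them Hoxa3, Stra6 and Irx3, reached 5 TPM in fewer than 3 KO libraries. The KO group means of Hoxb6 and Hoxb8 were at most 0.300 TPM. Genes in the table only because they are high in Ctrl are bound to resemble genes high in Ctrl, so these r values are a description only.

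The other genes of the pathway were counted in lists. Of 2 further Cyp26 genes, which also encode retinoic acid hydroxylases, Cyp26b1 went from 0.383 TPM in Ctrl ESCs to 7.61 TPM at d4 and 60.5 TPM at d6, and Cyp26c1 from 0.574 to 7.28 and 8.29 TPM. Cyp26b1 thus rose from d4 to d6 in Ctrl (log2 fold change 2.83, adjusted p = 2.04e-10), over the interval in which Cyp26a1 had a change of -0.16 that was not called. In KO they stayed between 0.384 and 0.799 TPM by group mean, and both were called lower at d4 (-2.36 and -2.28) and at d6 (-5.23 and -2.37). Both passed the 5 TPM minimum through Ctrl libraries only. Of the 5 genes of retinoid uptake and storage in the table, 3 were lower and 1 higher in KO at d4 (32.7% and 12.7% of all genes). At d6, 5 were lower (34.3% of all genes), with 2 of the 5, Stra6 and Ttr, in the table through Ctrl libraries only. Stra6, the membrane receptor for retinol-binding protein, went in Ctrl from 71.8 TPM at d4 to 32.4 TPM at d6, a log2 fold change of -1.11 (adjusted p = 4.32e-06). In KO it went from 2.65 to 4.58 TPM, a change of 0.62 (adjusted p = 0.00124) whose call was lost after quantile normalization (adjusted p = 0.0312), with a pseudocount of 0.1 (adjusted p = 0.0109) and in a fit to those groups alone (adjusted p = 0.0185). Rbp4 and Ttr, whose products carry retinol in blood, reached 122 and 24.4 TPM in Ctrl at d6 and were lower in KO by -3.48 and -2.19. At d4 Ttr was the 1 higher gene of this list (0.73, adjusted p = 0.00919), a call lost in 16 of the 28 other settings, among them leaving out KO library 3 of d4 (0.55, adjusted p = 0.0531). For Dgat1 the difference of -0.53 at d6 (adjusted p = 0.00293) lost its call after median-ratio rescaling (adjusted p = 0.0197).

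Of the genes of retinoic acid synthesis, Aldh1a1 had the largest difference. Aldh1a2, the main retinaldehyde dehydrogenase of the early embryo, fell in both genotypes from d0 to d4, from 23.4 to 5.26 TPM in Ctrl and from 23.8 to 2.95 TPM in KO. Its difference at d6 of -0.82 (adjusted p = 0.00402) lost its call after median-ratio rescaling (adjusted p = 0.0130) and in 5 other settings that kept every library. Aldh1a1 was lower in KO at d4 (-1.58, adjusted p = 1.58e-06) and d6 (-2.79, adjusted p = 1.06e-09), with 7.64 TPM in Ctrl at d6 and 0.241 TPM in KO, and it was in the table through Ctrl only. Rdh10, the main retinol dehydrogenase of the embryo, was at 12.7 TPM in Ctrl and 8.70 TPM in KO at d6 (-0.50, adjusted p = 0.00261), a call lost after median-ratio rescaling (adjusted p = 0.0169). Rdh11, Rdh14 and Adh5 were not called at d6 (log2 fold changes of 0.04, -0.16 and 0.19), and the synthesis list had 0 genes called higher and 3 lower of 6 in the table, beside 34.3% lower in all genes.

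The receptors were expressed in both genotypes on each day. Of the 4 other receptor genes in the table, Rara was lower in KO at d6 (-0.85, adjusted p = 5.55e-07), as were Rxra (-1.33, adjusted p = 1.57e-08) and Rxrb (-0.40, adjusted p = 0.00188, which median-ratio rescaling took to 0.0328). Rarg was higher in KO at d6 (0.66, adjusted p = 1.38e-05). Already at d0, Rara (-0.63, adjusted p = 4.51e-05) and Rxra (-0.64, adjusted p = 1.50e-04) were lower in KO, and Rxrb was not called (0.03). Rarg was lower in KO at d0 (-0.83, adjusted p = 5.42e-06) and not called at d4 (-0.06). In KO at d6 these genes were at 35.3 TPM (Rara), 84.5 TPM (Rarg), 22.5 TPM (Rxra) and 41.1 TPM (Rxrb), each above the 6.34 TPM of Rarb, whereas in Ctrl at d6 Rarb at 141 TPM exceeded each of them. Of 8 cofactors and related nuclear receptors, 7 were lower in KO at d4 (32.7% of all genes) and 7 at d6 (34.3%). Of the 8, 2 were in the table through Ctrl only. The largest differences were those of the orphan receptors Nr2f1 (-6.20) and Nr2f2 (-5.29), which are the genes that entered through Ctrl only, followed by the corepressor Nrip1 (-2.11), itself a retinoic acid target. Ncoa2 (-0.87) and Nr6a1 (-0.72) were lower as well, while the differences of Ncor1 (-0.48) and Ncoa3 (-0.33) lost their call after median-ratio rescaling (adjusted p of 0.0155 and 0.129).

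Of 16 other retinoic acid target genes in the table, 13 reached the 5 TPM minimum through Ctrl libraries only, so that they could hardly have failed to differ. Cdx1 and Tgm2 also reached it in 3 or more KO libraries. Cdx1, a homeobox target, fell from d0 to d4 in both genotypes, and by day it went from 90.6 to 28.6 and 12.9 TPM in Ctrl and from 196 to 3.33 and 1.61 TPM in KO. Tgm2, which encodes a transglutaminase, was at 39.2 TPM in Ctrl and 9.49 TPM in KO at d6 (-1.95). It was already lower in KO at d0, at 5.77 TPM in Ctrl and 2.10 TPM in KO (-1.14, adjusted p = 3.52e-05), and at d4 (-0.85, adjusted p = 2.91e-04). Over the list, 16 genes were lower in KO at d4 (32.7% of all genes) and 16 at d6 (34.3%). Their median log2 fold changes were -3.55 and -4.82. By value at d6, the largest of those reported by name were Hoxb5 (-6.42), Hoxb4 (-6.09), Hoxb1 (-5.94), Tshz1 (-5.77), Hoxa2 (-5.53) and Hoxa5 (-5.39). Hoxa4 (-4.83), Hoxa3 (-4.81), Meis2 (-4.75), Meis1 (-4.35) and Hoxb2 (-4.25) came next. The smallest of those named were Cdx1 (-2.44), Foxa1 (-2.42) and Tgm2 (-1.95). In KO from d4 to d6, 3 of the 16 genes rose, 3 fell and 10 were not called. Of all genes, 21.5% were called higher and 19.9% lower, so both counts are near the shares of all genes. Among those that rose was Tgm2 (1.04, adjusted p = 4.23e-05), and Meis1 (-0.55, adjusted p = 0.00201), Foxa1 (-1.13, adjusted p = 0.00172) and Tshz1 (-1.29, adjusted p = 7.91e-07) fell. Without KO library 3 of d6 the calls of Meis1 (adjusted p = 0.0117) and Foxa1 (adjusted p = 0.0112) were lost, and that of Foxa1 was lost without KO library 1 of d4 (adjusted p = 0.0111).

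**Figure D4:**
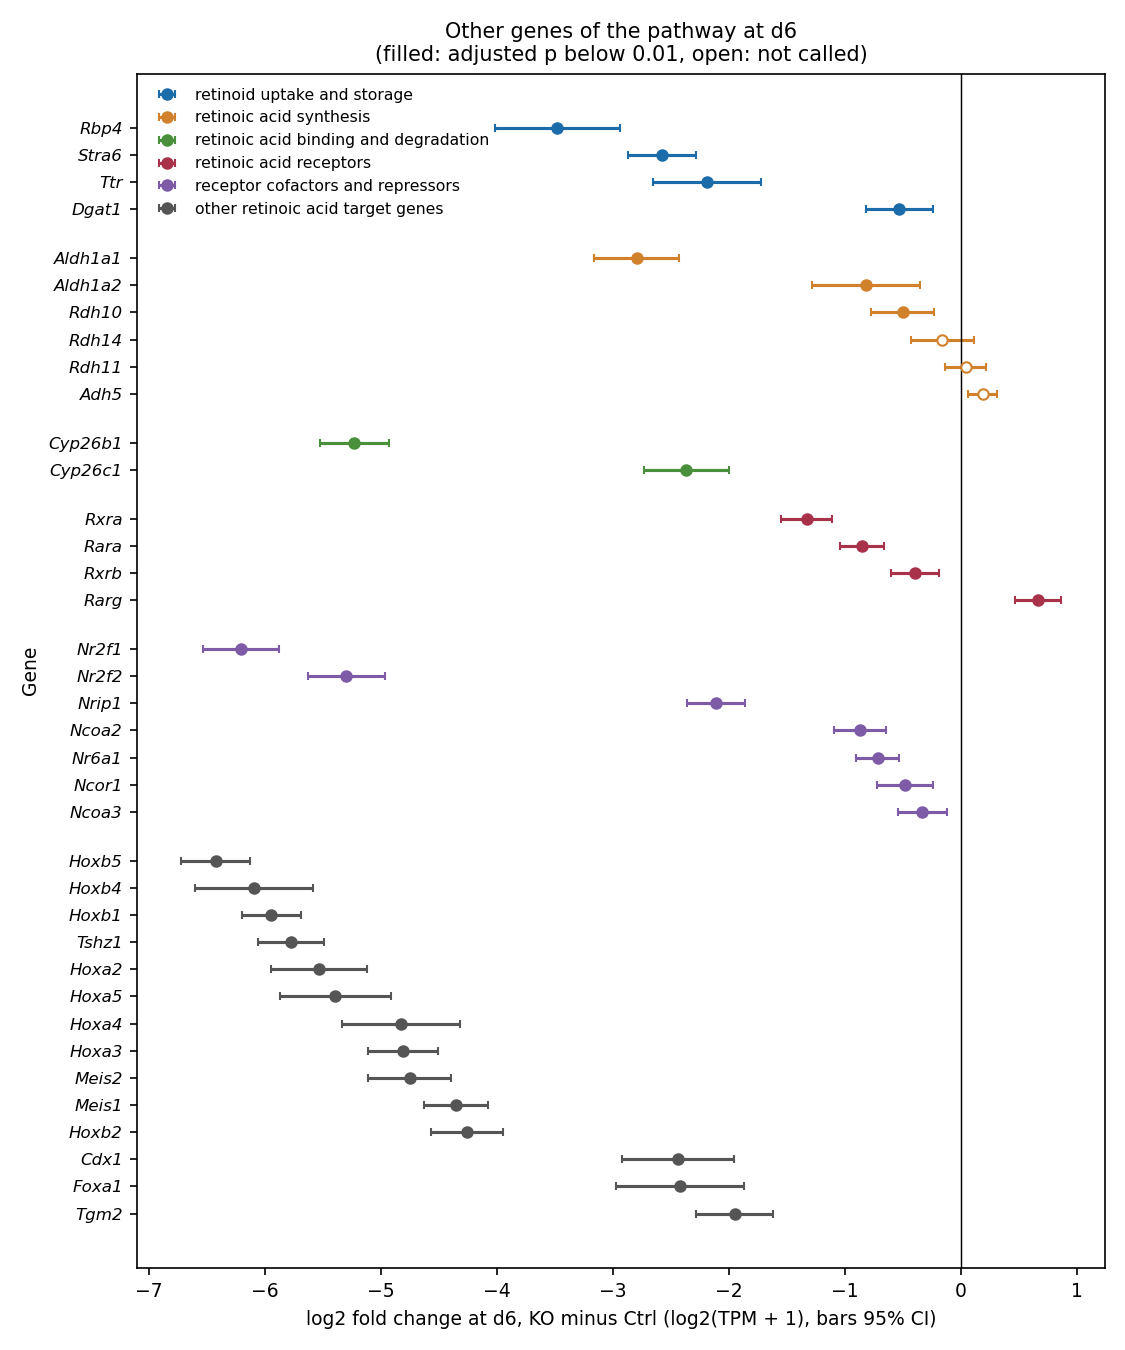
Log2 fold change at d6, KO minus Ctrl, on log2(TPM + 1) for other pathway genes in the table, grouped and colored by list, with bars of the 95% confidence interval from limma. Filled points passed an adjusted p of 0.01, and Rarg is the filled point to the right of 0.

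Levels of cell type markers differed between the same groups. The summed TPM of 8 pluripotency markers was 507 to 580 in the Ctrl libraries at d6 and 2883 to 3192 in KO, with 6 higher and 1 lower (17.9% of all genes were called higher). Utf1 was the largest part of the KO sum, with a mean of 1501 TPM in KO and 175 TPM in Ctrl. The differences of Tdgf1 (3.81), Pou5f1 (2.68) and Nanog (1.42) were larger than those of Esrrb (0.67) and Zfp42 (0.55). Klf4 was lower in KO (-0.83), and Tbx3 was not called (-0.35). The sum of 7 neural markers was 495 to 562 in Ctrl and 97.7 to 117 in KO at d6. All 7 were lower, beside 34.3% of all genes. Of 6 endoderm markers 6 were lower (102 to 155 in Ctrl and 32.6 to 45.9 in KO), and of 3 mesoderm markers 1 was higher and 2 lower (136 to 190 and 11.7 to 16.8). The mesoderm sum in Ctrl was mostly Meox1, with a mean of 153 TPM in Ctrl and 0.721 TPM in KO, while Eomes was higher in KO (2.00 and 9.93 TPM). Of the markers, 2 neural, 4 endoderm and 2 mesoderm genes, Meox1 among them, passed the 5 TPM minimum through Ctrl libraries only. No marker of these lists was at 0 reads throughout a group at d6. In whole EBs fewer cells of a type and less RNA per cell cannot be told apart, and the part of cell type makeup in the values of the 6 genes was not tested.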

How the data were processed

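The 18 libraries were single reads of 36 bp, which the authors mapped to GRCm38 with TopHat2 2.0.13 and counted per gene with featureCounts 1.4.6 (versions also in the submitters' processing notes). The authors converted the counts to TPM, removed short noncoding genes, kept genes with at least 5 TPM in at least 3 libraries, dropped the 20% that varied least, and deposited the TPM with 3 columns of a score per gene (named as a variance, a standard deviation and a variability), which were not used. Of 11046 rows, 81 repeated identifiers were left out. Whole reads were recovered from the TPM of all 10965 genes (tolerance 1e-05 of a read, after taking off the 1 read that each value includes), for depth and for limma's voom as an alternative.

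Groups were compared with limma 3.58.1 (R 4.3.3; lmFit, contrasts.fit, eBayes with trend) on log2(TPM + 1), over 12 comparisons, with Benjamini-Hochberg adjustment over all genes. Intervals and SE are those of limma. Python 3.11.15 with numpy 2.4.6, pandas 2.3.3 and matplotlib 3.10.9 served for levels, sequences and figures. The steps were tested on simulated data. Positions are from GENCODE M21 (GRCm38). The 6 genes and the lists (6 of the pathway, 5 of markers) were chosen with earlier results of these data known. All 6 genes are reported, and from the pathway lists the genes called between d4 and d6 or at d6 with a group mean of at least 5 TPM, every Aldh1a, Cyp26, Rar and Rxr gene, and for each of the 6 genes the 3 genes of highest r. Some genes of the lists enter the counts but are not reported here by name. Cdx1 and Tgm2 were singled out for their KO levels after the values were seen. Tried as alternatives were pseudocounts of 0.1 and 5, a mean TPM of at least 10, quantile normalization, median-ratio rescaling, a fit to the groups compared, eBayes without trend, a replicate block, voom, removal of chromosome medians, and leaving out each library.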

Additional observations from a re-analysis of the deposited data

Results flagged for a closer look

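Each of the 11 differences below stood out because the change between days was not the same in Zeb2 KO as in Ctrl, by a test of that difference in the limma model of 6 groups. From d0 to d4 the change in KO minus that in Ctrl was -6.38 for Cyp26a1, -1.26 for Crabp1, -1.64 for Crabp2, -3.29 for Rarb, -4.63 for Stra8 and -3.27 for Dhrs3 on the log2 scale. From d4 to d6 it was 1.84 for Cyp26a1, -3.62 for Crabp1, -3.32 for Crabp2, -1.33 for Stra8 and 1.53 for Dhrs3. The value of Crabp2 from d0 to d4 was not called with voom on the recovered reads (-1.43, adjusted p = 0.0455), and the other 10 kept their call in each of the 28 settings. Groups of 3 libraries are too small to test for a library that stands apart.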

How the results depend on the processing

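Over the 6 genes, 12 comparisons and 28 settings, 1979 values kept their direction and call, 18 lost a call, 11 gained one and 8 changed sign. The 6 genes were called lower in KO at d4 and d6 in each setting. At d0, 2 of 6 genes were called, and 1 after quantile normalization, in a fit to d0 alone and with voom, where Stra8 was lost. From d0 to d4 in KO, 5 of 6 were called, and 3 after quantile normalization (without Rarb and Dhrs3) and with voom (without Crabp1 and Dhrs3). Signs turned for Dhrs3 at d0 after quantile normalization (0.0866, adjusted p = 0.756), for Stra8 from d0 to d6 in KO after quantile normalization (-0.39), and for Stra8 from d0 to d4 in KO after median-ratio rescaling (-0.13), quantile normalization (-0.46), voom (-0.0178), removal of chromosome medians (-0.19), without KO library 2 of d0 (-0.06) and without KO library 1 of d4 (-0.13, with 0.129 as the highest value on leaving out 1 library), none of them called. The cause was not tested. With a replicate block 6 of 6 genes were called at d6 as before, and no call on the 6 genes changed. Libraries with the same number had correlated deviations (r over 0.1) in 29 of 45 pairs, with r from -0.0926 to 0.336. Whether a shared number means a shared experiment is not stated. The main model did not use the numbers, and the replicate block is the setting that did.

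The share of all calls that were higher moved with the scaling: at d4 from 28.0% to 49.6% after median-ratio rescaling, at d6 from 34.3% to 49.9%, from d0 to d4 in Ctrl from 66.9% to 49.4% and in KO from 63.2% to 49.1%, and from d0 to d6 in Ctrl from 64.0% to 49.6%. For the difference in change it moved from 37.8% to 52.0% (d0 to d4) and from 40.7% to 51.1% (d0 to d6). From d4 to d6 in KO, 4540 genes were called, and 2801 in a fit to those groups alone. At d0 the levels of Cyp26a1 rested on 2 to 5 reads per library, which limits the precision of folds against d0.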

Other observations

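Stra8 is best known from germ cells, and 9 of 11 germ cell and meiosis markers listed were in the table. At d6 in KO, where Stra8 was lower by -6.70, 3 of the 9 were higher and 2 lower, beside 17.9% and 34.3% of all genes. Sycp3, a protein of the meiotic chromosome axis, was higher in KO (1.82, adjusted p = 1.84e-07), as were Mael (0.95, adjusted p = 4.66e-05) and Ddx4 (0.46, adjusted p = 0.00255), both genes of germ cells. The call of Ddx4 was lost without Ctrl library 2 of d6 (adjusted p = 0.0185), without KO library 1 (adjusted p = 0.0145) or 2 (adjusted p = 0.0156) of d6, and in a fit to d6 alone (adjusted p = 0.0249). Rec8, the meiotic cohesin, was lower (-2.01, adjusted p = 6.05e-10), as was Dazl, a germ cell RNA-binding protein (-1.21, adjusted p = 5.45e-09). At d0, 5 of the 9 were lower in KO and 0 higher, beside 16.4% and 10.6% of all genes. Tex101 (-2.20) and Mael (-1.38) were the lowest. The summed TPM of the 9 markers was 440 to 461 in Ctrl at d6 and 337 to 411 in KO. The adjusted p-values are from limma.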
